A study of Mus musculus with 6 samples.

Results

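The C/D box snoRNA fragments described here are reads of 17 to 34 nt that had no match in a miRNA hairpin and that lay, sense and without mismatch, in a snoRNA gene whose symbol starts with Snord. The annotation, GENCODE M21, holds 97 such symbols among 6077 symbols of small RNA genes, of which 1483 are snoRNAs. Symbols whose reads could not be told apart were joined, which left 77 members. All 77 had reads, and 73 passed the filter on low counts and were tested. Together they took 260153 of 115958638 reads, in 7200 distinct sequences. The rule for members used symbols and sequence matches and no measured difference between the groups. It was set with earlier results of these data known.

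The libraries come from the sensorimotor cortex of male C57BL/6J mice at postnatal day 90, for which the labels name no transgene or deletion. In the 3 control libraries the cervical cord had been exposed under anaesthesia and left intact. In the 3 SCI libraries (spinal cord injury) it had been cut through at C5/6. The sample titles read wt for the control group and SCI for the injured group. Both were sampled 7 days after surgery, the mice were sampled individually, and total RNA gave HD-adapter small RNA libraries. The cut lies below the brain, and the cortex holds, among many other cells, the neurons whose axons run down to the cord. In bulk tissue, fewer cells of a type and less RNA per cell cannot be told apart.

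C/D box snoRNAs are short nucleolar RNAs, mostly released from introns of host genes, that carry a box C near the 5' end and a box D near the 3' end, often with internal copies (C' and D'). The stretch just before box D or D' pairs with a target RNA, most often ribosomal RNA, and directs 2'-O-methylation of the paired base. The boxes bind a protein core with the methyltransferase fibrillarin. In brain the imprinted Snord115 and Snord116 clusters are known for high expression in neurons, and loss of the human SNORD116 cluster is linked to Prader-Willi syndrome. Small RNA libraries hold fragments of these RNAs, not the whole molecules, so the values below are levels of fragments.

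The annotated sequences carry these marks. The letters TGATGA of box C stood within the first 15 nt of 63 of the 97 symbols (64.9%), and CTGA of box D stood within the last 15 nt of 91 (93.8%). Among 42 Snora transcripts, the other large snoRNA class (H/ACA), the counts were 0 and 3 (7.14%). The members were 64 to 238 nt long with a median of 78 nt. A host gene on the same strand covered 74 of the 77, and 61 lay in its intron (some of these are exonic in retained-intron transcripts). For 20 members the host is a ribosomal protein gene.

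The whole sequences of Snord85 (3' fragments), Snord57 (5' fragments), Snord116 (both) and Snord110 (the smallest p) show where the fragments lie. Capitals mark TGATGA and CTGA. DNA letters are used as in the annotation, and every sequence runs 5' to 3'.
Snord85: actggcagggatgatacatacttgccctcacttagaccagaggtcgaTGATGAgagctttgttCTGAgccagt
Snord57: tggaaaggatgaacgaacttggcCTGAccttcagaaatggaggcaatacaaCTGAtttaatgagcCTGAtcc
Snord116: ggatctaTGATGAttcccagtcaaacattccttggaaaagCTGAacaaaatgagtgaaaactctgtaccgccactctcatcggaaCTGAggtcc
Snord110: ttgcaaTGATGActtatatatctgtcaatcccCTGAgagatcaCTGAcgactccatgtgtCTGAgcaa
In GRCm38 coordinates, Snord57 (chr2:130278016-130278087) and Snord110 (chr2:130275506-130275573) both lie in introns of Nop56, plus strand, which encodes a core protein of C/D box particles. The Snord116 sequence is that of the copy Snord116l1, which lies at chr7:59894620-59894713, minus strand, in an intron of Snhg14.

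The most abundant read of each leading member, again with both motifs in capitals, was 1 stretch of the RNA that mostly stopped just after a CTGA.
Snord85 read: ggtcgaTGATGAgagctttgttCTGAgc
Snord57 read: tggaaaggatgaacgaacttggcCTGAcc
Snord2 read: CTGAaatgaagagaatactcttgCTGAtc
Snord116 read: gatctaTGATGAttcccagtcaaacat
Snord110 read: gatcaCTGAcgactccatgtgtCTGAgc
Snord95 read: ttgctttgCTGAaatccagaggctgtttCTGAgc
Snord17 read: caccaagatgagtggtgcaaatCTGAtc
Snord93 read: tggccaaggatgagaactctaacc
Snord64 read: gacttaTGATGAgctatgtttaCTGAgc
The Snord85 read covers bases 42 to 69 of its RNA and made up 55.1% of the member's reads. That of Snord57 covers bases 1 to 29 (44.9%), and that of Snord2 bases 37 to 65 (70.4%). The Snord116 read, bases 2 to 28, made up 54.5% of its reads and is the one among these, with that of Snord93, that does not end after a CTGA.

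Libraries held 10585062 to 24480988 reads, of which 73.3% to 79.4% lay in miRNA hairpins, and 3 counts (the limit that a count of 0 allows) are 0.123 to 0.283 RPM (reads per 1000000 reads of the library). The libraries differ in read length: reads of 30 to 34 nt took 1.33%, 0.611% and 0.543% of control 1, 2 and 3, and 0.584%, 3.66% and 2.31% of SCI 1, 2 and 3, so SCI 2 and SCI 3 stand apart. Of the hairpins that mark tissues, brain Mir124 (7340 to 13719 RPM) and Mir9 (82819 to 106333 RPM) were high in every library. Liver Mir122 stood at 2.66 to 5.26 RPM. Of the striated muscle markers, Mir206 stood at 1.48 to 5.13 RPM but Mir1a at 369 to 426 RPM. Myeloid Mir223 stood at 13.96 to 18.8 RPM and Mir142 at 149 to 312 RPM. Erythroid Mir451a stood at 291 to 775 RPM and Mir144 at 97.8 to 252 RPM. Choroid plexus Mir204 stood at 518 to 977 RPM and Mir211 at 0.479 to 2.25 RPM. Of these 9 markers of other tissues and cells, Mir206 did not overlap between the groups (SCI higher), and Mir9 was lower in all SCI libraries. Their part in the results below was not tested. Replicates differed by far more than sampling noise: over 73 members, chi-square per degree of freedom was 9.97 to 51.1 between libraries of 1 group.

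Snord reads took 0.282%, 0.246% and 0.169% of control 1, 2 and 3, and 0.149%, 0.272% and 0.213% of SCI 1, 2 and 3. The groups overlapped. Means were 0.233% ± 0.0576 and 0.211% ± 0.0613 (SD, n = 3 each), and the difference of -0.0213 percentage points had an exact two-sided permutation p of 0.7. With 3 libraries a group, no p below 0.1 is possible. The difference turned to 0.00342 without control 1 and to 0.00983 without SCI 1, and was -0.0529 without control 3 and -0.0514 without SCI 2. Counting error is small beside this spread: the 95% Wilson interval of control 2, the shallowest library, was 0.243% to 0.249%. Without molecular identifiers, such an interval covers the error of counting alone.

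Few members supplied most of the reads. Scaled to the length of the RNA, mean levels over the 6 libraries were 514 RPM per 100 nt for Snord85, 351 for Snord57, 318 for Snord2, 284 for Snord116, 162 for Snord110 and 107.3 for Snord95. The median member stood at 9.22 RPM per 100 nt. The 3 members with the most reads held 40.0% of all Snord reads, and the top 10 held 68.8%. Antisense reads numbered 0 to 9 per library, at most 0.0413% of the sense reads.

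Most fragments came from the ends of the RNAs. Over all members, 55.2% to 59.2% of control reads and 53.6% to 56.9% of SCI reads ended within 5 nt of the annotated 3' end. The 5' end, by the same distance from the read's start, held 26.3% to 30.3% and 29.7% to 34.9%. Both groups overlapped (differences -2.19 points, exact permutation p = 0.3, and 2.74 points, p = 0.4, n = 3 each). Leaving out control 1 gave -1.14 and 1.51 points, and leaving out SCI 2 gave 1.04 for the 5' end. Among the 71 members with at least 100 reads, 44 gave more 3' than 5' reads and 27 the opposite. In 25 members more than 80% of reads came from the 3' end, as in Snord85 (92.7%), Snord2 (94.1%) and Snord110 (97.7%). In 5 members more than 80% came from the 5' end, among them Snord57 (95.9%) and Snord93 (99.8%).

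**Figure D1:**
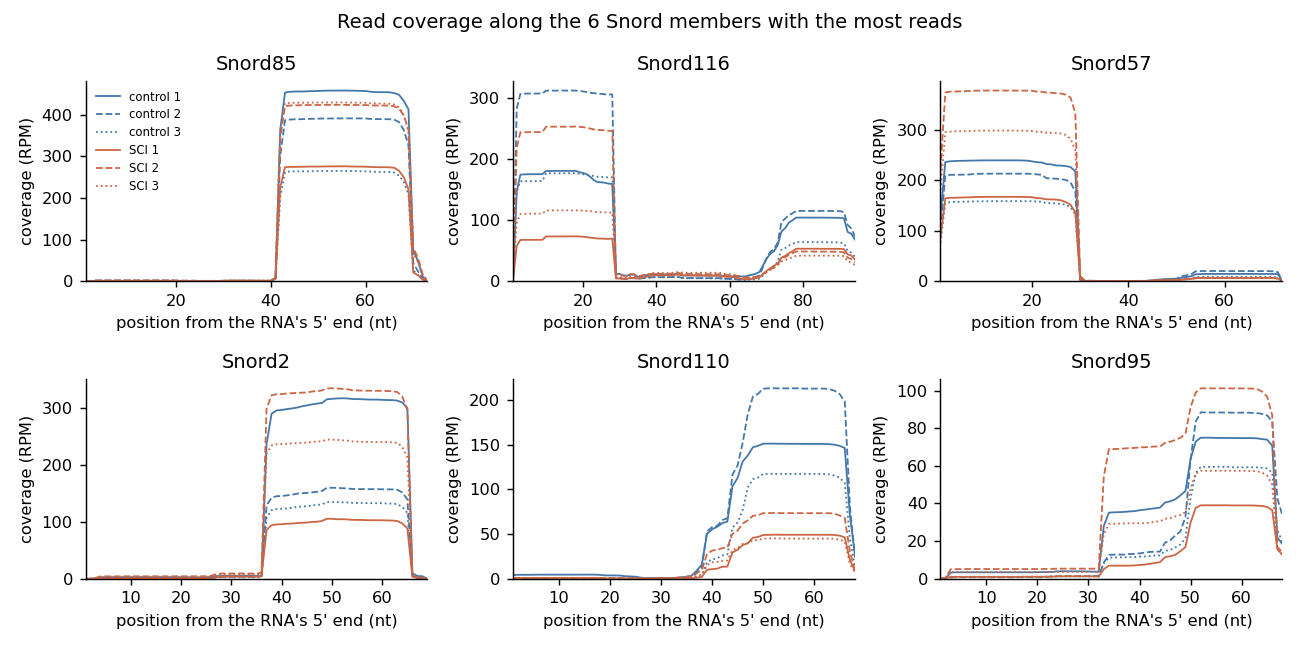
Coverage in RPM (y) against position from the 5' end of the RNA in nt (x) for the 6 members with the most reads, with 1 line per library, blue for control and orange for SCI, and solid, dashed and dotted lines for replicates 1, 2 and 3. Snord85, Snord2, Snord110 and Snord95 have their reads in the 3' part of the RNA, Snord57 in its first 29 bases, and Snord116 at both ends, in all 6 libraries.

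Most 3' ends of the reads sat at a fixed distance from box D or D' letters. Of all Snord reads, 58.7% ended exactly 2 nt after a CTGA, against 3.47% of all possible 28-nt windows of the same RNAs. As CTGA stood within the last 15 nt of 93.8% of the symbols, these reads overlap with the 3' end reads above. The windows do not allow for this. Reads ending 0 to 3 nt after CTGA took 70.7%, 67.7% and 67.7% of Snord reads in control 1, 2 and 3. In SCI 1, 2 and 3 they took 69.0%, 72.0% and 74.7%. Of all windows of these RNAs, 13.7% of those of 28 nt and 12.4% of those of 20 nt end there. The share was thus near 70% in every library, and the groups overlapped (difference 3.19 points, exact permutation p = 0.2, n = 3 each, 1.79 without SCI 3). It turned to -4.45 points (exact permutation p = 0.1) with reads that match no other biotype and to -0.333 (p = 0.8) with each distinct sequence counted once. In 54 of the 71 members with at least 100 reads, most reads ended there. The exceptions included Snord93 (1.19%), Snord118 (1.80%), Snord14c/Snord14d (2.11%), Snord116 (7.32%) and Snord22 (8.13%).

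**Figure D2:**
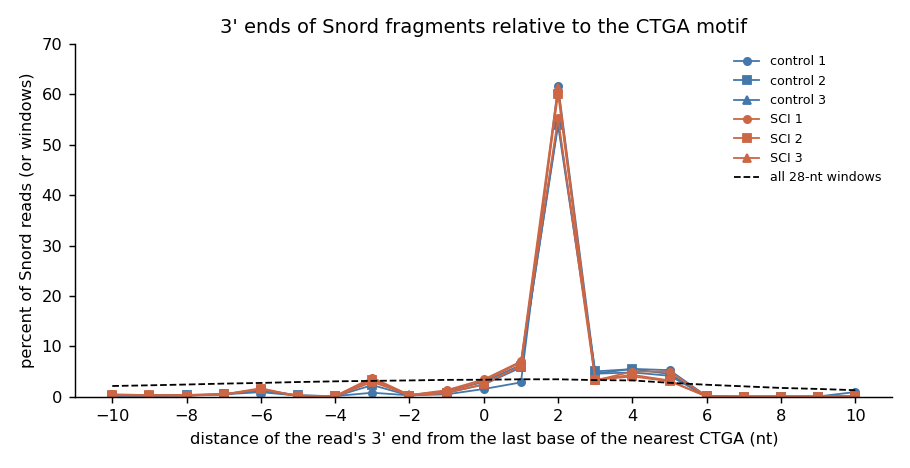
Percent of Snord reads (y) by the distance in nt of the read's 3' end from the last base of the nearest CTGA (x), with 1 line per library, and the same percent for all 28-nt windows of the Snord RNAs as a dashed line. Between 53.9% and 61.7% of the reads of each library end 2 nt after the motif, where the windows hold 3.47%.

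In reads per library, the groups were apart in 1 class of read length, which was chosen after seeing the data. Short Snord reads (17 to 26 nt) stood at 1087, 1056 and 777 RPM in control 1, 2 and 3, and at 656, 642 and 563 RPM in SCI 1, 2 and 3. Every SCI library lay below every control library. Means were 973 ± 170 and 620 ± 50.2 RPM (SD, n = 3 each), a difference of -353 RPM with an exact two-sided permutation p of 0.1, the smallest possible here. The difference was -451 to -296 RPM when single libraries were left out.

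Longer Snord reads did not separate the groups. Those of 27 to 29 nt stood at 1441, 1283 and 831 RPM in control and 755, 1645 and 1317 RPM in SCI libraries (exact permutation p = 0.9, n = 3 each). Those of 30 to 34 nt stood at 293.5, 125 and 86.2 RPM against 78.96, 428 and 254 RPM (exact permutation p = 0.7). Among the SCI libraries SCI 2 is highest and SCI 1 lowest in both classes, as in the share of 30 to 34 nt reads in the whole library. Set against all reads of the same length, Snord reads were lower in all 3 SCI libraries in each class. They took 0.112%, 0.108% and 0.0789% of 17 to 26 nt reads in control against 0.0667%, 0.0683% and 0.0590% in SCI. At 27 to 29 nt they took 8.74%, 9.36% and 8.77% against 7.17%, 7.02% and 5.91%. At 30 to 34 nt they took 2.21%, 2.05% and 1.59% against 1.35%, 1.17% and 1.10%. Each of these exact permutation tests gave the smallest possible p of 0.1 (n = 3 each).

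**Figure D3:**
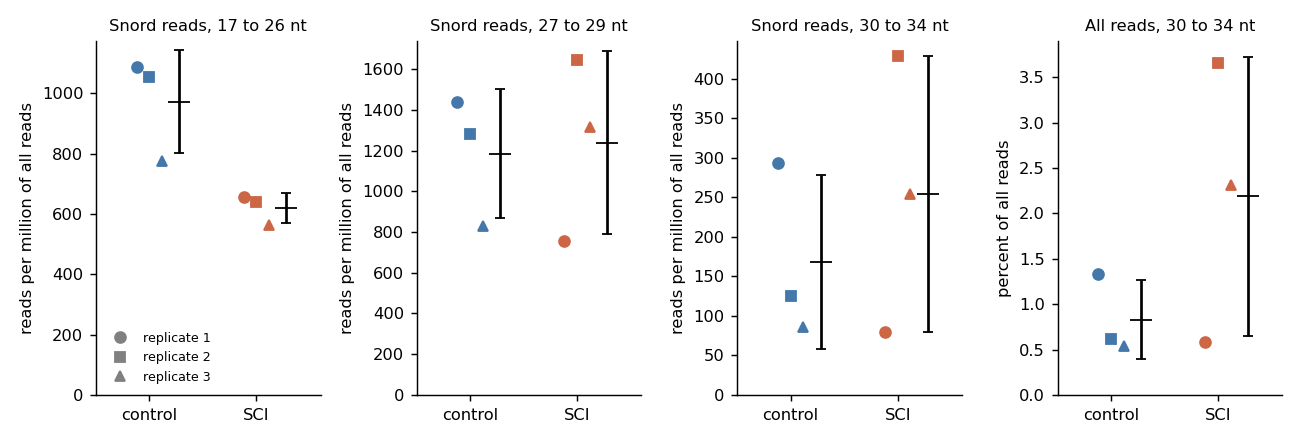
Snord reads of 17 to 26, 27 to 29 and 30 to 34 nt in RPM, and all reads of 30 to 34 nt in percent of the library, in each control (blue) and SCI (orange) library, with circle, square and triangle for replicates 1, 2 and 3 and black bars for the mean and SD (n = 3). The groups are apart for the short reads, at 777 to 1087 against 563 to 656 RPM, and overlap in the other panels.

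H/ACA snoRNAs, which carry other boxes and guide pseudouridylation, give a comparison within the same libraries. Short Snora reads stood at 121, 122 and 125 RPM in control and at 124, 104 and 106 RPM in SCI libraries, so the groups overlapped. Snora reads of all lengths stood at 135.5, 129.05 and 131 RPM against 127, 128.9 and 116 RPM and were lower in every SCI library (exact permutation p = 0.1, n = 3 each), with control 2 just above SCI 2. The ratio of short Snord to short Snora reads was 8.96, 8.64 and 6.20 in control against 5.31, 6.15 and 5.32 in SCI. These groups did not overlap, though control 3 and SCI 2 lay close (difference -2.34, exact permutation p = 0.1, n = 3 each).

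Among Snord reads, those of 28 to 34 nt took 49.8%, 37.9% and 37.0% in control and 42.7%, 61.5% and 60.7% in SCI libraries. Control 1 lay above SCI 1, and the difference of 13.4 points had an exact permutation p of 0.2 (n = 3 each). The class of 27 to 29 nt reads that end 0 to 3 nt after CTGA, the form of the leading fragments, took 43.0%, 38.4% and 38.7% against 44.04%, 49.9% and 54.1%. These groups did not overlap, with SCI 1 just above control 1 (9.30 points, exact permutation p = 0.1).

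Snord116 is a cluster of repeated genes on chromosome 7. The annotation names 17 copies between 59861731 and 59904848, all inside Snhg14, 14 of them identical, with 4 distinct sequences in all. Of the reads of the cluster, 99.8% lay in 10 or more copies, so copies cannot be told apart, and as many also lay in snoRNA genes of the same host that have no Snord symbol. Snord116 took 297, 433 and 247 RPM in control 1, 2 and 3 and 137, 315 and 173 RPM in SCI 1, 2 and 3. SCI 2 lay above control 1 and control 3. The share of all reads differed by -0.0117 percentage points (exact permutation p = 0.3, n = 3 each), by -0.00637 without control 2 and by -0.0171 without SCI 2.

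Reads of Snord116 came from both ends. Its leading 5' read stood at 125, 274 and 138 RPM in control and at 52.0, 205 and 88.5 RPM in SCI libraries, which overlap. Reads from the 3' end stood at 103.5, 114.3 and 63.3 RPM against 52.7, 47.9 and 41.4 RPM, with no overlap (difference -46.3, exact permutation p = 0.1, n = 3 each). Its most abundant 3' read, ctctcatcggaaCTGAggtcc, made up 3.31% of the member and stood at 11.5, 16.8 and 10.4 RPM against 6.63, 5.94 and 3.51 RPM. The make-up of its reads overlapped between the groups: 5' end reads took 65.3% ± 5.96 in control and 63.4% ± 14.2 in SCI (SD, n = 3 each, exact permutation p = 0.9), and 3' end reads 28.96% ± 5.17 and 25.9% ± 11.7 (p = 0.8). In the fit by read length (below), Snord116 differed by -0.78 ± 0.21 (log2, SE) in short reads and by -0.59 ± 0.48 in long reads, with edgeR adjusted p of 0.183 and 0.640, and the difference between the classes was not tested.

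No gene in the annotation has the symbol Snord115, so that group has no members here. Snhg14 also holds 191 snoRNA genes without a Snord symbol. Of these, 54 share reads with Snord116 and 137 do not, and 105 of the 137 hold an 18-nt stretch that is complementary to the serotonin receptor mRNA Htr2c. As background, Snord115 is the snoRNA known for such a stretch. The stretch, its site in Htr2c and the most abundant read of these genes are shown because the read carries most of the stretch, and capitals in the read mark the 16 bases of it that served to count such reads.
Stretch: atgctcaataggattacg
Htr2c site: cgtaatcctattgagcat
Read: tGCTCAATAGGATTACGctgagg
The site is at chrX:147169689-147169706 (GRCm38, plus strand), in the coding part of exon 5. No Snord member had more than 12 complementary bases in a row to Htr2c transcripts, with a median of 9, against up to 19 in the unnamed genes.

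These unnamed genes were not counted as members, but their reads outnumbered those of any single member in control libraries. They stood at 1298, 788 and 530 RPM in control 1, 2 and 3 and at 371, 449 and 383 RPM in SCI 1, 2 and 3. Control libraries spread widely, yet each lay above each SCI library. Means were 872 ± 390.5 and 401 ± 42.1 RPM (SD, n = 3 each), with an exact permutation p of 0.1. The difference was -471 RPM, but -258 without control 1. The 23-nt read above made up 20.5% of the group, at 307, 173 and 117 RPM against 67.4, 66.6 and 53.3 RPM. As for the Snord members, the gap stood in the short reads (1085, 675 and 476 against 325, 328 and 294 RPM), whereas reads of 27 to 34 nt overlapped (213, 112.5 and 54.9 against 45.7, 121 and 89.3 RPM). Reads with at least 16 of the 18 bases took 69.8% to 77.1% of the group in control and 64.3% to 68.7% in SCI libraries. Reads with all 18 bases took 34.2% to 41.3% and 32.2% to 43.3%, which overlap (exact permutation p = 0.9, n = 3 each).

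Single members were tested with edgeR over the whole small RNA table of 704 features. None of the 73 tested Snord members passed at an adjusted p under 0.05, nor did any of the 704 (0.0% called). The smallest adjusted p of a member was 0.182. At an unadjusted p under 0.05 stood 14 members, against 16.5% of all features, 13 of them lower in SCI, against 7.95% of all features in that direction, and 1 higher, against 8.52%. DESeq2 called 5 members, all lower (4.12% of all features called, 2.13% lower), limma-voom called 0, with 11 at an unadjusted p under 0.05, and edgeR without the filter on low counts called 9, all lower (3.06% of features called, 1.42% lower). In RPM, 11 members lay lower in all SCI than in all control libraries, against 8.81% of features, and 2 lay higher, against 12.5%. The median log2 difference of the members was -0.09, against 0.01 over all features, and it was -0.31 without SCI 2, but -0.20 when control 3 was left out and 0.15 when control 1 was. DESeq2 and the unfiltered fit were not repeated with libraries left out.

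The 5 members called lower by DESeq2 were Snord110, Snord32a, Snord12, Snord50a/Snord50b and Snord80. In each, most reads were short and most ended just after a CTGA. The stretch before a CTGA is where C/D box guides pair with their targets. Both traits were common: of the 71 members with at least 100 reads, 38 had mostly short reads. In 54 of the 71, most reads ended just after a CTGA. For Snord110 and Snord12 the second read is shown. The leading Snord110 read has 28 nt, and the leading Snord12 read (bases 6 to 23) holds the box C letters TGATGA. The reads are shown with both motifs in capitals.
Snord110, second read: CTGAcgactccatgtgtCTGAgc
Snord32a: catgcaccgctCTGAga
Snord12, second read: tgccagttttgtCTGAtg
Snord50a/Snord50b: tacttacggatctggcttCTGAga
Snord80: ctttcgctcctatCTGAtg

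Snord110 had the smallest p of all members. It stood at 156, 215 and 118.5 RPM in control 1, 2 and 3 and at 50.5, 74.97 and 46.4 RPM in SCI 1, 2 and 3. All SCI libraries lay below all controls, with a log2 difference of -1.55 ± 0.30 (SE, edgeR adjusted p = 0.182, DESeq2 adjusted p = 0.000373), between -1.82 and -1.30 with single libraries left out. Of its reads, 70.03% were short. Snord57, from another intron of the same host gene Nop56, stood at 254, 233 and 167 RPM in control and 173, 384 and 304 RPM in SCI libraries, which overlap (0.36 ± 0.31, edgeR adjusted p = 0.651, and 0.07 without SCI 2), and 8.55% of its reads were short.

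Snord32a, in an intron of the ribosomal protein gene Rpl13a (chr7:45127382-45127464, minus strand), stood at 39.4, 29.9 and 29.5 RPM in control and at 11.6, 18.7 and 12.6 RPM in SCI libraries. The groups lay well apart (-1.24 ± 0.26, edgeR adjusted p = 0.182, DESeq2 adjusted p = 0.000424). Its 17-nt leading read, 54.6% of the member, stood at 18.01, 19.8 and 20.02 RPM against 6.29, 8.80 and 5.92 RPM, so the 3 controls differed little from each other. Rpl13a introns hold 3 more members. All 4 were lower by sign (49.4% of all features were, and 42 of the 73 tested members), with a median of -1.01, and 2 were lower at an unadjusted p under 0.05 (7.95% of all features). These 2 were Snord32a and Snord34. Snord34 stood at 7.11, 2.46 and 1.43 RPM against 0.820, 1.79 and 0.904 RPM, which overlap (-1.67 ± 0.63, and -0.72 without control 1). Snord35a stood at 3.97, 2.74 and 2.57 RPM against 2.12, 2.31 and 1.26 RPM (-0.76 ± 0.33, edgeR unadjusted p = 0.0504), without overlap, as in Snord32a. Snord33 overlapped (-0.78 ± 0.38, and -0.37 without control 1).

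Snord80 and Snord47 come from introns of Gas5, a noncoding host gene whose RNA level follows growth and translation. Snord80 stood at 57.5, 67.5 and 32.1 RPM in control and 22.2, 29.6 and 24.55 RPM in SCI libraries (-1.09 ± 0.31, edgeR adjusted p = 0.200, DESeq2 adjusted p = 0.0219). Snord47 stood at 42.5, 15.2 and 11.4 RPM against 10.1, 9.14 and 9.09 RPM (-1.33 ± 0.48, edgeR adjusted p = 0.277), and the difference was -0.57 without control 1, which stands far above the other libraries. The third Gas5 member, Snord78, had few reads, at 0.785, 0.189 and 0.327 RPM against 0.410, 0.897 and 1.10 RPM (0.77 ± 0.54, edgeR adjusted p = 0.561, and 1.47 without control 1). The 3 members of this host thus did not share a sign.

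Snord12, from an intron of the noncoding gene Zfas1, stood at 59.4, 50.4 and 25.4 RPM in control and 21.6, 21.6 and 17.2 RPM in SCI libraries (-1.21 ± 0.33, edgeR adjusted p = 0.182, DESeq2 adjusted p = 0.0207). Its most abundant read, tgaaCTGATGAtatcatt, was at 25.02 RPM in control 1 and at 0.452 to 1.80 RPM in the other 5 libraries. Its second read, at the 3' side, stood at 3.31, 6.14 and 3.19 RPM against 2.05, 1.495 and 1.66 RPM. Without control 1 the member's difference was -0.996. Snord50a and Snord50b, joined because they share reads, lie in Snhg5 and stood at 62.1, 79.9 and 37.8 RPM against 25.2, 34.6 and 25.3 RPM (-1.12 ± 0.31, edgeR adjusted p = 0.190, DESeq2 adjusted p = 0.0219). In both members all SCI libraries lay below all controls. Of the 11 members without overlap on the lower side, 4 were named only after their values were seen: Snord111 (-1.37 ± 0.45), Snord68 (-1.28 ± 0.47), Snord99 (-0.95 ± 0.40) and Snord16a (-0.87 ± 0.32). Without control 1 they were -0.75, -0.61, -0.33 and -0.71 in the same order. Snord99, from Snhg12, had the most reads of these, at 111, 40.6 and 41.2 RPM in control against 36.8, 31.6 and 34.4 RPM in SCI libraries. Control 1 stands far above the rest.

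In the other direction no member passed any of these tests. Snord82, in an intron of the nucleolin gene Ncl, had the smallest p, at 11.1, 7.65 and 10.2 RPM in control and 14.6, 13.6 and 16.8 RPM in SCI libraries (0.58 ± 0.23, edgeR adjusted p = 0.282). Its groups did not overlap. Snord52 stood at 26.03, 35.9 and 24.6 RPM against 22.5, 76.9 and 59.1 RPM (0.83 ± 0.43, edgeR adjusted p = 0.412, and 0.44 without SCI 2). SCI 2 and SCI 3, the libraries rich in long reads, were high and SCI 1 was low, and 3.87% of the Snord52 reads were short. Snord55 (0.63 ± 0.45) gave 0.07 without SCI 2. Snord93 stood at 17.7, 56.2 and 58.2 RPM against 54.4, 90.6 and 61.3 RPM (0.60 ± 0.45), with 0.18 without control 1, its only low library. Reads of Snord93 also lie in a snoRNA-typed gene named as a microRNA, so its source is uncertain.

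Of the other abundant members, beside Snord110, Snord116 and Snord57 above, Snord85, Snord2, Snord95 and Snord17 overlapped between the groups. Snord85 stood at 459, 393 and 266 RPM in control and 277, 426 and 431 RPM in SCI libraries (-0.03 ± 0.26, edgeR adjusted p = 0.981). Snord2 stood at 322, 162 and 137 RPM against 108, 341 and 248 RPM (0.13 ± 0.46, and -0.28 without SCI 2). In both, the spread within a group exceeded the difference of the means. Snord95 stood at 79.04, 89.7 and 60.7 RPM against 40.3, 106.6 and 61.1 RPM (-0.18 ± 0.36), and Snord17 at 98.7, 61.6 and 39.6 RPM against 52.2, 92.7 and 72.3 RPM (0.08 ± 0.36).

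**Figure D4:**
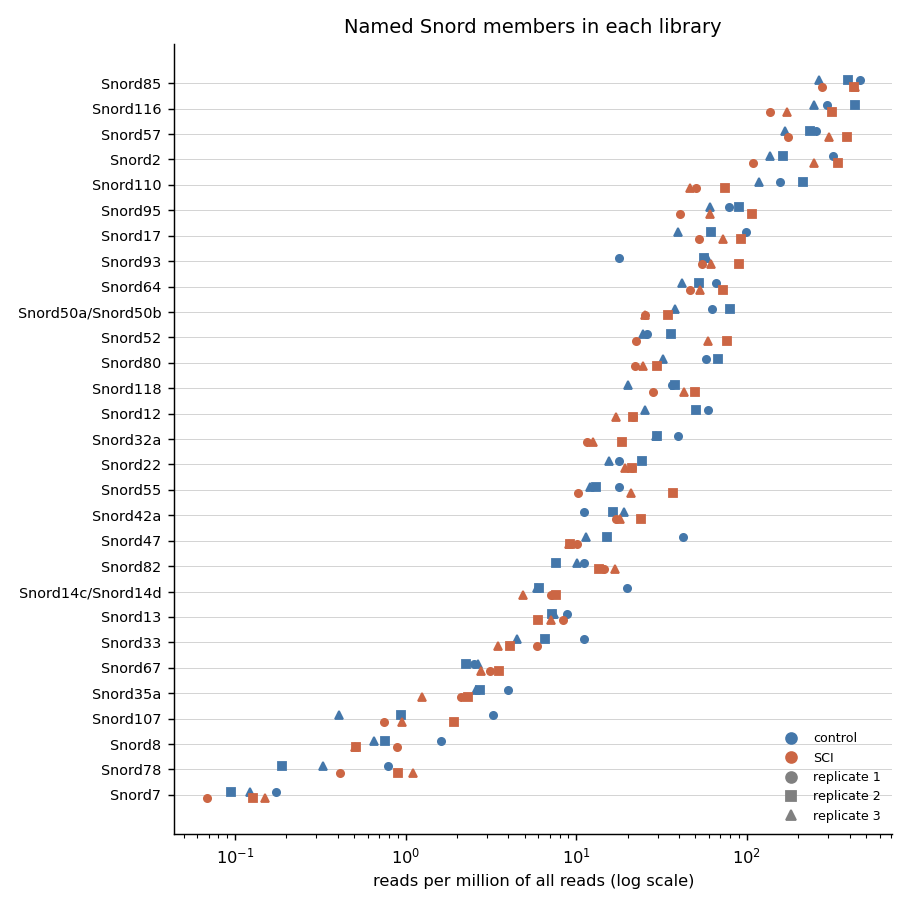
Level of each named member in RPM (x, log scale) in each library, blue for control and orange for SCI, with circle, square and triangle for replicates 1, 2 and 3, ordered by mean level. Orange lies left of blue without overlap for Snord110, Snord50a/Snord50b, Snord80, Snord12, Snord32a, Snord47 and Snord35a, and right of it for Snord82 and Snord67.

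The lists by host or function were described by their counts. Members in ribosomal protein hosts, where 19 of 20 were tested, had 14 lower and 5 higher by sign and a median of -0.52 (over all features 49.4% were lower by sign). Their examples differ: Snord32a was lower (above), while Snord42a, in Rpl23a, stood at 11.2, 16.3 and 19.1 RPM against 17.2, 23.9 and 18.2 RPM (0.30 ± 0.27, with 0.0780 without control 1 and 0.12 without SCI 2). Of the members known for a role in rRNA processing, 3 of 4 were lower by sign (median -0.41). Among them Snord118, the U8 RNA, stood at 36.5, 38.2 and 20.2 RPM against 28.1, 49.9 and 42.8 RPM (0.31 ± 0.33, with 0.10 without control 3 or without SCI 2), and Snord13 at 8.81, 7.18 and 7.43 RPM against 8.41, 5.94 and 7.08 RPM (-0.18 ± 0.23, and -0.34 without SCI 1). Snord14c/Snord14d, from Hspa8, stood at 19.8, 6.05 and 5.88 RPM against 7.11, 7.65 and 4.87 RPM (-0.74 ± 0.50), and gave 0.0559 without control 1.

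Guides of U6 snRNA methylation had few reads. Snord67 stood at 2.53, 2.27 and 2.66 RPM in control and 3.15, 3.55 and 2.76 RPM in SCI libraries, without overlap (0.29 ± 0.23), Snord8 at 1.61, 0.756 and 0.654 RPM against 0.889, 0.513 and 0.502 RPM (-0.77 ± 0.45, and -0.24 without control 1), and Snord7, with 15 reads in all, was not tested. Of the imprinted region next to Snord116, Snord64 stood at 66.0, 52.1 and 41.5 RPM against 46.5, 72.4 and 52.9 RPM (0.06 ± 0.26) and Snord107 at 3.27, 0.945 and 0.408 RPM against 0.752, 1.92 and 0.954 RPM (-0.39 ± 0.73, and 0.94 without control 1). Snord22, the 1 member inside Snhg1, where this annotation places it in exons of noncoding transcripts, stood at 17.7, 24.2 and 15.6 RPM against 21.3, 21.3 and 19.2 RPM (0.06 ± 0.24). Among the tested members of this paragraph the smallest edgeR adjusted p was 0.476 (Snord8).

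The same members gave different values for short and long reads. When Snord reads of 17 to 26 nt and of 27 to 34 nt were entered as separate features of the whole table, 759 features were tested. The other features kept their reads of all lengths, so the shares over all features are not a background of the same read length. These shares also include the Snord features. The class of 17 to 26 nt was chosen after seeing these data, and the members share the same 6 libraries. The counts by member thus describe the difference in summed short reads again and are no separate support for it. None passed at an adjusted p under 0.05 in edgeR (0.0% of features called). In short reads 58 of 67 tested members were lower in SCI by sign, against 47.4% of all features, with a median of -0.50. The median ran from -0.66 without control 3 to -0.31 without control 1. At an unadjusted p under 0.05, 19 were lower (7.25% of features) and 0 higher. DESeq2 called 9 of the 67, all lower (2.24% of features), edgeR without the filter 7 (0.776%), and limma-voom 0, with 16 at an unadjusted p under 0.05. In 20 of the 67, all SCI libraries lay below all controls (9.35% of features), and in 0 above (11.3%).

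Long reads, scaled to the whole table and not to reads of their own length, showed another picture. Of 61 tested members 17 were lower by sign, with a median of 0.27, which was 0.78 when control 1 was left out and 0.44 when SCI 1 was. It was 0.02, -0.04 and -0.16 without control 2, control 3 and SCI 2, respectively. No member's groups were apart in either direction. Of the 55 members tested in both classes, 48 had a lower value in short than in long reads, 31 were lower in short and higher in long reads, 16 lower in both and 7 higher in both. Snord110 was lower in both (-1.68 ± 0.27 and -1.18 ± 0.48, edgeR adjusted p = 0.160 and 0.311). Snord95 had opposite signs (-0.84 ± 0.27 and 0.80 ± 0.74), with short reads at 39.5, 75.3 and 48.2 RPM in control and 32.3, 31.7 and 28.1 RPM in SCI, and long reads at 39.5, 14.5 and 12.5 RPM against 8.07, 74.9 and 33.03 RPM. Its long reads were highest in SCI 2 and lowest in SCI 1. The members of ribosomal protein hosts followed the same split, with 18 of 19 lower in short reads (median -0.81) and 4 of 14 in long reads (median 0.38). SCI 2 and SCI 3 also hold the largest shares of long reads among all 6 libraries, and the part of this in these values was not tested. Set against all reads of 27 to 29 nt or of 30 to 34 nt, summed Snord reads were lower in every SCI library (above). The counts by member were not made on that scale.

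**Figure D5:**
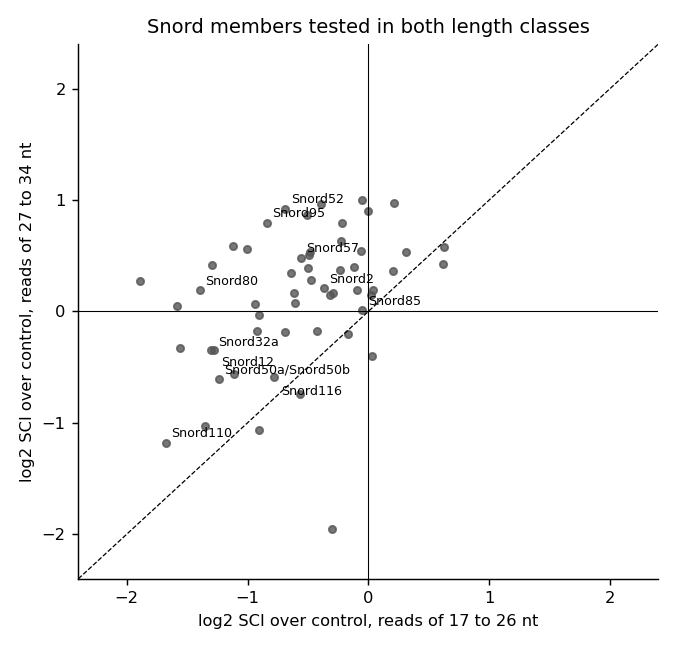
Log2 difference between SCI and control in reads of 27 to 34 nt (y) against that in reads of 17 to 26 nt (x), with 1 point for each of the 55 members tested in both, some of them named, and a dashed line where both are equal. Most points, 48, lie above the dashed line, and 31 lie in the upper left field, lower in short and higher in long reads. Values are scaled to the whole table, not to reads of the same length.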

How the data were processed

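Each library is a table of distinct read sequences with raw read counts, 17 to 34 nt long, as the authors deposited them. Per the file headers the columns are sequence and abundance. The build GRCm38 is credited to the submitters' processing notes. The trimmer, aligner and read filters are not given in the sources used here.

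Reads were matched to GENCODE M21 transcripts as described at the start. Of the Snord reads, 40.1% to 46.6% matched no other biotype, 1.15% to 3.21% matched transcripts outside the host gene, and 0.613% to 3.63% a snoRNA-typed gene with a microRNA name. Symbols were joined where 50% or more of the smaller one's reads were common to both, and reads still shared (0.0692% to 0.188%) were left out of member counts. The main test was edgeR 4.0.16 (quasi-likelihood, TMM, filterByExpr with a minimum count of 10, R 4.3.3) on all 1340 small RNA features, 704 of them tested, with Benjamini-Hochberg adjustment over the table. DESeq2 1.42.0 and limma 3.58.1 (voom) were alternatives. Values per library were compared by exact permutation (two-sided), and shares have 95% Wilson intervals. On simulated data, edgeR called 51.6% of features changed by a log2 of 1 in either direction and 97.9% of those changed by 2. It called 1.02% of unchanged features. A change of about 1 could thus often be missed. The simulated features varied independently and a preset part of them was changed, so these percentages may not hold for the real libraries. Python 3.11.15, pandas 2.3.3, numpy 2.4.6, scipy 1.17.1 and matplotlib 3.10.9 were used.

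Named members are Snord116, the 8 with the highest mean share, the 5 of smallest p per direction where fewer passed, and up to 3 per list. Snord34, Snord111, Snord16a, Snord68 and Snord99 are outside this rule. Members, lists and tests were chosen with earlier results of these data known. The planned Snord115 values could not be computed for want of the symbol.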

Additional observations from a re-analysis of the deposited data

How the results depend on the processing

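For the main results, 72 values under other settings kept their direction or, for counts of members passing, stayed at 0. Another 4 moved and 2 reversed. With a library left out, 73 values kept their direction or stayed at 0, and 5 reversed. The count of Snord members passing moved from 0 to 5 with DESeq2 and to 9 without the filter on low counts, and for reads of 17 to 26 nt to 9 and 7. It stayed 0 under total read, DESeq2 and upper quartile scaling, limma-voom, a minimum count of 5, and each left-out library. The share of reads ending after CTGA turned to -4.45 points with reads in no other biotype and to -0.333 with each sequence counted once. Near-zero log2 differences changed sign for Snord85 (0.0195 by total reads, 0.0059 by limma-voom), for Snord17 (-0.0367), Snord64 (-0.0445) and Snord22 (-0.0320) by upper quartile, and for Snord107 (0.0196 by limma-voom). Upper quartile scaling moved the median of all features by -0.0852.

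With single libraries left out, the differences ran from -0.0529 to 0.00983 for the Snord share, from -0.0373 to 0.0180 for the share without Snord116, and from -0.31 to 0.15 for the median. Among members they ran from -0.93 to 0.94 for Snord107, -0.999 to 0.0559 for Snord14c/Snord14d, -0.16 to 0.43 for Snord17, -0.28 to 0.55 for Snord2, -0.0335 to 0.27 for Snord22, -0.16 to 0.21 for Snord64, -0.19 to 0.13 for Snord85 and -0.66 to 0.0539 for Snord95. The cause of these changes was not tested.

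With the replicate number as a block, 0 Snord members passed and the median was -0.07, and the Snord share differed by -0.0213 points (exact sign-flip permutation p = 1). Deviations from the group mean correlated at -0.0079, -0.0946 and 0.0855 between same-numbered libraries, and at -0.17 to 0.13 between the others. With 3 libraries a group, these values cannot show whether the numbers pair the samples. The alternatives on reads outside the host and on reads in a gene with a microRNA name were chosen after seeing the data. So were the results on the short reads, on the CTGA ends and on the unnamed genes, with their alternatives. Transcripts with flanking genome sequence were not run, as no genome sequence was used here. Depth limits members such as Snord7, where 2 libraries held a single read.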
